A study of Mus musculus with 14 samples.

Results

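The 8 genes described here belong to cholesterol synthesis and its control: Hmgcs1, Idi1, Fdft1, Sqle, Lss and Cyp51, which encode enzymes, and Srebf2 and Insig1, which encode regulators. They were taken by symbol from 55401 genes counted in each sample, and the choice was made with earlier results of these data known. All 8 are also among the 23441 genes of the matrix that the authors deposited. None of the 8 encodes an uptake receptor. All 8 passed the filter on low counts, with 62 to 143 counts per sample for Idi1, the least counted, and 3452 to 5383 for Srebf2, the most counted.

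The study asked what bone marrow adipocytes (BMAds) supply to the marrow when food is limited. RNAseq was run on marrow plugs flushed from the distal tibia of male mice, a site rich in adipocytes. Each of the 14 samples pooled plugs of 2 mice. The knockout removed Pnpla2, which encodes adipose triglyceride lipase, the enzyme that starts the breakdown of stored triglyceride.

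All mice were C57BL6/SJL males of 24 weeks. BMAd-Pnpla2+/+ mice, the controls, gave 4 samples fed ad libitum (AL) and 4 samples kept for 6 weeks under 30% caloric restriction (CR), with the day's food given in the evening before dark. BMAd-Pnpla2-/- mice gave 3 AL and 3 CR samples. Mice of both genotypes carried the Cre cassette and FLPo, and the BMAd-Pnpla2-/- mice differed in having floxed Pnpla2 alleles. Cre is made from the Adipoq gene only after FLPo, made from the Osterix gene, has turned the cassette round. Deletion is thus meant for adipocytes of the marrow alone. The authors described the Cre made from this cassette as low, with less complete recombination in young mice, and the cassette itself as lowering circulating adiponectin. The authors also saw the cassette label some stromal or dendritic cells of the marrow. Controls were littermates, but no source says which pools share a litter, and p-values measure the spread between these pools.

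Cells make cholesterol from acetyl-CoA through HMG-CoA, mevalonate, the isoprenoid diphosphates, squalene and lanosterol. The pathway is held in balance by the SREBP-2 transcription factor, the product of Srebf2. When sterol in the endoplasmic reticulum is scarce, SREBP-2 is carried by SCAP to the Golgi, cut there, and raises the genes of sterol synthesis and uptake, and when sterol is plentiful, INSIG proteins hold SCAP back. Cells with surplus sterol export it through the transporters encoded by Abca1 and Abcg1.

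Samples held 25282327 to 27475056 read pairs and 18898324 to 21665553 reads counted on genes. Pnpla2, the deleted gene, was used as a check of the labels. It was at 135, 170 and 131 CPM (counts scaled by library size) in BMAd-Pnpla2-/- AL against 301, 174, 199 and 190 in BMAd-Pnpla2+/+ AL. Under CR it was at 177, 219 and 267 in BMAd-Pnpla2-/- against 804, 991, 1015 and 502 in BMAd-Pnpla2+/+. The genotypes did not overlap on either diet, although whole marrow holds other cells with Pnpla2. On AL the nearest samples were at 170 and 174 CPM. The difference there was not called (log2 fold change -0.57, adjusted p = 0.9996, edgeR), so the check is weak on AL. Within the groups Pnpla2 had r of 0.94 with the summed adipocyte genes given below, and the part of cell content was not tested. The 3 BMAd-Pnpla2-/- CR libraries stood apart in strand: 49.98% to 51.6% of the strand-assigned reads of the 8 genes were on the first strand, against 4.61% to 7.47% in the other 11 libraries, so that library type and this group cannot be told apart. Counts taken without regard to strand are therefore used throughout. The RNA of cell type genes moved with diet as well. The summed CPM of 8 adipocyte genes (Adipoq, Plin1 and others, none at 0) was 733 to 1911 in BMAd-Pnpla2+/+ AL and 1995 to 5034 in BMAd-Pnpla2+/+ CR, and 319 to 744 and 1294 to 2091 in BMAd-Pnpla2-/- AL and CR. The summed level of 8 genes marking B-cell precursors went from 135 to 408 down to 56.7 to 80.6 in BMAd-Pnpla2+/+, and from 241 to 294 down to 57.3 to 67.1 in BMAd-Pnpla2-/-. In such bulk samples, fewer cells of a type and less RNA per cell cannot be told apart.

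The starts of 3 of the genes are shown with the matches found there to motifs by which the pathway is known. SREBP-2 binds sterol regulatory elements, commonly beside boxes for NF-Y and Sp1. RefSeq windows from 250 bases before to 50 after the start (GRCm38.p6, the build mm10) were found for 6 of the 8 genes, Sqle and Fdft1 not among them. Motifs were searched on both strands as TCACNCCAC for the sterol regulatory element, CCAAT for NF-Y and GGGCGG for Sp1. Of the 6 windows, 1 held the first motif, that of Hmgcs1, against 1.24% of 32851 mouse windows of the same length, and all 6 held each of the other two, against 37.4% and 35.7%. Lss is shown as the gene with the largest response to CR, and Srebf2 as the regulator. Each run ends before the first annotated transcribed base, and capitals mark motif matches.
Hmgcs1, chr13:119690101-119690350, forward strand: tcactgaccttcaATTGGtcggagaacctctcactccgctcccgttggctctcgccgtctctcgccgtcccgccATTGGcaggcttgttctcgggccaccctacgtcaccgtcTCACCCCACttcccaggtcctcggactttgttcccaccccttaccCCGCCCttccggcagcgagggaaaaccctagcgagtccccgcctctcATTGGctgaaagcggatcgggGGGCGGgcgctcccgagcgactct
Lss, chr10:76531355-76531587, forward strand: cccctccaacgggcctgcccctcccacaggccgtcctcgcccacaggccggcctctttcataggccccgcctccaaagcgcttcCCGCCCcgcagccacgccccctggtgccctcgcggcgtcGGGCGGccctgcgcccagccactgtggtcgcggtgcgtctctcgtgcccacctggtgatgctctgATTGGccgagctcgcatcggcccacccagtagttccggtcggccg
Srebf2, chr15:82147019-82147180, forward strand: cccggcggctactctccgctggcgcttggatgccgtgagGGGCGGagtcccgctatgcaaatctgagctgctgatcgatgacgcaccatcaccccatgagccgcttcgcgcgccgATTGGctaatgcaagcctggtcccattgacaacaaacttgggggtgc
Within these printed runs Hmgcs1 held 1 sterol regulatory element, 3 NF-Y and 2 Sp1 matches, Lss 1 NF-Y and 2 Sp1 matches, and Srebf2 1 of each of these. A match is a description of the letters and not of a bound site.

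Per length, Srebf2 was by far the most abundant of the 8 transcripts. Its median level over the 14 samples was 30.7 CPM per kb of exon (24.9 to 40.1), and it did not overlap the next. Insig1 followed at 11.9 (8.29 to 16.4), Fdft1 at 8.82 (7.46 to 10.7) and Hmgcs1 at 7.33 (5.72 to 9.13), and the ranges of these neighbours overlapped. Cyp51 at 4.02 (3.51 to 5.57) and Sqle at 3.96 (3.23 to 5.55) had nearly the same level, lower than every Hmgcs1 value. Idi1 at 1.78 (0.888 to 2.44) and Lss at 1.31 (0.872 to 2.29) were the lowest and overlapped. Exon bases shared with a gene on the other strand were left out of the length, since reads there are counted for neither gene. For Hmgcs1 these were 557 of 4594 bases. Its unstranded count was only 65.5% to 77.8% of the reverse-strand count in the 11 strand-specific libraries. For Fdft1 they were 774 of 4227 bases, and that share was 99.2% to 101%. The order of Fdft1 and Hmgcs1 was not checked with other count columns. The Lss length of 10406 bases takes in long alternative exons of the annotation, which lowers its level on this scale.

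**Figure D1:**
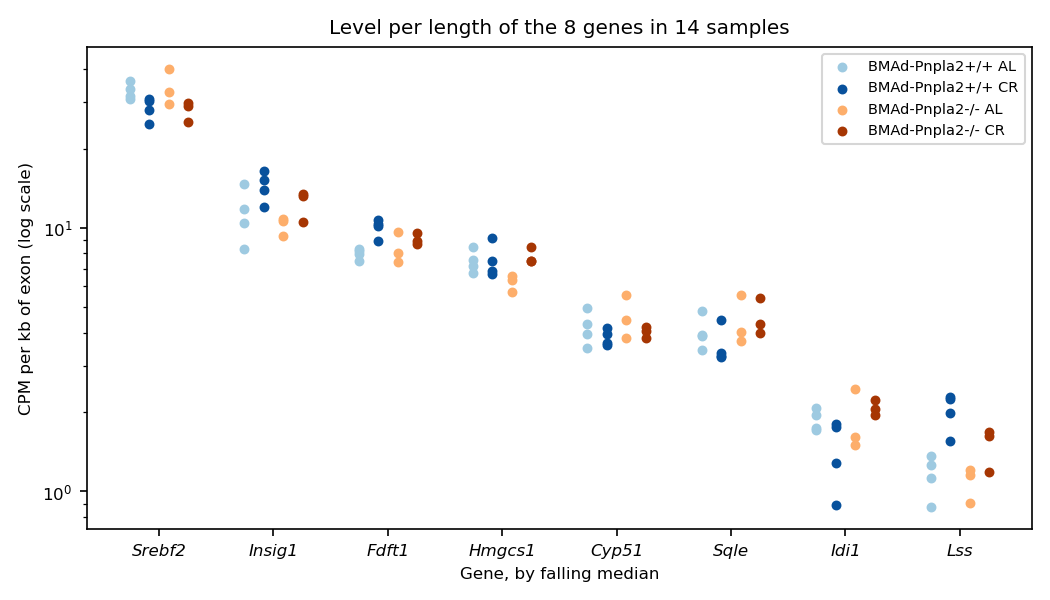
Level of each of the 8 genes in CPM per kb of exon (vertical axis, log scale), by falling median from left to right, with 1 point per sample, coloured by group. Srebf2 lies above the other genes in all 14 samples, and Idi1 and Lss are lowest, at 0.872 to 2.44.

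In BMAd-Pnpla2+/+ mice, CR went with more Lss and more Fdft1 transcript, while the other 6 genes did not pass an adjusted p of 0.05. These 2 of 8 genes called higher stand against 15.1% of 17671 genes tested, and the 0 of 8 called lower against 10.9%. The same 2 genes had groups that did not overlap, against 22.8% of genes in either direction. No gene of the 8 also passed the study's criterion of an absolute log2 fold change over 1, against 9.28% of genes. The median log2 fold change of the 8 was -0.05, with 4 above and 4 below 0, and that of all genes was 0.00. DESeq2 and limma voom each called 2 of the 8 as well.

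Among the enzymes, Hmgcs1 makes HMG-CoA, the precursor of mevalonate. It was at 34.3, 30.4, 27.2 and 29.0 CPM in BMAd-Pnpla2+/+ AL (30.2 ± 3.03, SD, n = 4) and at 27.1, 30.3, 36.9 and 27.8 in BMAd-Pnpla2+/+ CR (30.5 ± 4.46). The groups overlapped, with 1 CR sample just below and 1 above the AL range, and the log2 fold change was 0.01 (95% interval -0.23 to 0.25, adjusted p = 0.941). Idi1, which interconverts the isoprenoid diphosphate building blocks, was at 6.23, 6.59, 5.56 and 5.45 CPM on AL and at 5.59, 2.83, 4.09 and 5.75 under CR. Replicates 2 and 3 of the CR group were below every AL sample, but the other two were not, and the log2 fold change of -0.39 (-0.86 to 0.08) did not pass (adjusted p = 0.200).

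Fdft1, squalene synthase, joins farnesyl diphosphates in the first step committed to sterols. It was at 25.9, 28.6, 27.6 and 28.1 CPM in BMAd-Pnpla2+/+ AL (mean 27.6, SD 1.198, n = 4) and at 35.2, 36.9, 30.9 and 35.8 under CR (34.7 ± 2.64). Every CR sample was above every AL sample, and Fdft1 rose 1.26-fold (log2 fold change 0.33, SE 0.10, adjusted p = 0.0237). This call is close to the threshold. Adjusted p was 0.0524 without AL replicate 1, 0.0728 without AL replicate 3, 0.0676 without CR replicate 1, 0.0611 without CR replicate 2, and 0.0824 with no filter on low counts. Fdft1 shares 774 exon bases with Ctsb on the other strand, a cathepsin gene with 368555 counts in all against 8592 for Fdft1.

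Sqle, squalene epoxidase, was at 26.8, 19.1, 21.6 and 21.8 CPM on AL and at 18.2, 18.5, 17.9 and 24.9 under CR in BMAd-Pnpla2+/+ mice. CR replicates 1 to 3 lay below all AL samples and replicate 4 lay among them, and the log2 fold change of -0.17 (-0.51 to 0.18) did not pass (adjusted p = 0.455).

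Lss, lanosterol synthase, closes the sterol ring system. It was at 14.2, 9.07, 13.1 and 11.7 CPM in BMAd-Pnpla2+/+ AL (12.0 ± 2.22, n = 4) and at 20.6, 23.8, 23.4 and 16.2 under CR (21.0 ± 3.50). The groups did not overlap, with CR replicate 4 the closest to the AL samples, and Lss rose 1.75-fold (log2 fold change 0.81, SE 0.17, adjusted p = 0.00699). Its adjusted p stayed between 0.00224 and 0.0250 when any 1 of the 14 samples was left out. Within the 4 groups Lss moved with the adipocyte genes and with or against those of other cell types, as given further on. The part of cell content in its rise was not tested.

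Cyp51, the demethylase that acts on lanosterol, was at 21.1, 18.4, 14.9 and 16.8 CPM on AL and at 16.9, 15.6, 15.3 and 17.8 under CR. The CR samples lay inside the AL range, with a log2 fold change of -0.12 (-0.40 to 0.16, adjusted p = 0.520).

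Of the regulators, Srebf2 was at 259.9, 222, 242 and 228 CPM in BMAd-Pnpla2+/+ AL (237.96 ± 16.998, n = 4) and at 201, 219, 179 and 223 under CR (205 ± 20.04). All CR values but that of replicate 4 were below every AL value, and the log2 fold change of -0.21 (-0.45 to 0.02) did not pass (adjusted p = 0.153). Insig1, whose product retains SCAP when sterol is plentiful, was at 45.4, 25.6, 36.7 and 32.4 CPM on AL and at 47.1, 43.0, 50.8 and 37.1 under CR. AL replicate 1 lay among the CR samples. The log2 fold change was 0.35 (0.01 to 0.68, adjusted p = 0.113), and without AL replicate 1 it was 0.50 with an adjusted p of 0.0301.

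**Figure D2:**
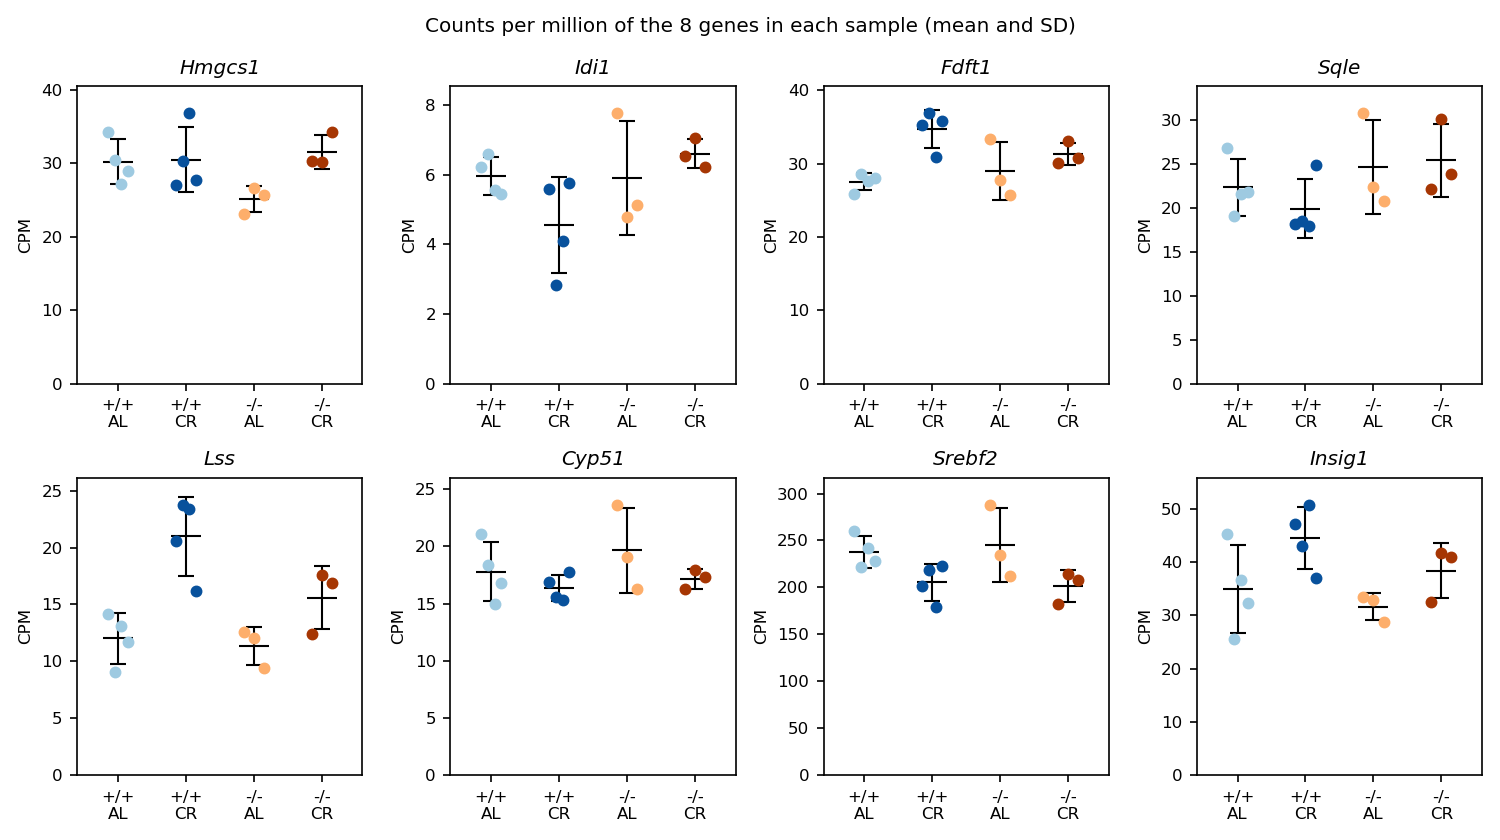
CPM (vertical axis, from 0) of the 8 genes, 1 panel each, in BMAd-Pnpla2+/+ and BMAd-Pnpla2-/- samples on AL and CR, with 1 point per sample and the mean and SD of each group in black. In BMAd-Pnpla2+/+ the Lss and Fdft1 points of CR lie wholly above those of AL, and for Hmgcs1 the same holds in BMAd-Pnpla2-/-.

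In BMAd-Pnpla2-/- mice, none of the 8 genes passed the test for CR against AL, against 6.04% of genes called higher and 5.57% called lower. At an unadjusted p under 0.05 the count was 3 of 8, Hmgcs1, Lss and Srebf2, beside 29.1% of all genes, and DESeq2 and limma voom called 0. No gene met the criterion with an absolute log2 fold change over 1 either, against 3.53% of genes. The median log2 fold change of the 8 was 0.14, with 6 above 0, beside 0.05 for all genes. Scaling bears on the direction here: of all genes called, 52.0% were higher with TMM, 41.9% with the size factors of DESeq2 and 67.0% with library totals, and the median of the 8 was 0.14, 0.10 and 0.21.

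Hmgcs1 was at 23.1, 26.6 and 25.7 CPM in BMAd-Pnpla2-/- AL (25.1 ± 1.81, n = 3) and at 30.3, 30.1 and 34.2 under CR (31.5 ± 2.32). It was the only one of the 8 without overlap between these groups, against 37.9% of all genes, and its log2 fold change was 0.33 (0.05 to 0.61, adjusted p = 0.114). Lss was at 12.6, 12.1 and 9.41 CPM on AL and at 12.4, 17.6 and 16.9 under CR. Replicate 1 of the CR group lay among the AL samples, and the log2 fold change was 0.46 (0.03 to 0.89, adjusted p = 0.145). Srebf2 was at 288, 235 and 212 CPM on AL and at 182, 214 and 208 under CR, where replicate 2 overlapped the lowest AL sample. Its log2 fold change was -0.28 (-0.55 to -0.02, adjusted p = 0.148).

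The other 5 genes overlapped between the BMAd-Pnpla2-/- groups. Fdft1 was at 33.4, 27.7 and 25.8 CPM on AL and at 30.1, 33.1 and 30.8 under CR, a log2 fold change of 0.11 (-0.12 to 0.35). Idi1 was at 7.78, 4.79 and 5.13 on AL and at 6.54, 7.05 and 6.23 under CR, a log2 fold change of 0.16 (-0.37 to 0.70). AL replicate 1 was the highest of its group for both, and for every other gene of the 8 except Hmgcs1, where it was the lowest. Sqle was at 30.8, 22.4 and 20.7 on AL and at 22.1, 30.1 and 23.9 under CR, and Cyp51 at 23.7, 19.1 and 16.3 and at 16.2, 17.9 and 17.3, with log2 fold changes of 0.04 (-0.36 to 0.44) and -0.20 (-0.52 to 0.13). Insig1 was at 33.4, 32.8 and 28.7 on AL and at 32.5, 41.7 and 41.0 under CR, with a log2 fold change of 0.28 (-0.11 to 0.67). The intervals of all 5 held 0.

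Between genotypes, none of the 8 genes differed on AL, where the test called 0% of 17671 genes, nor under CR, where it called 0.0113%, or 2 genes, of which Pnpla2 was 1 (log2 fold change -1.90, adjusted p = 0.0386). Pnpla2 was called in 5 of the 14 fits that left out 1 sample, and its adjusted p reached 0.220 without BMAd-Pnpla2-/- CR replicate 1. At an unadjusted p under 0.05, 1 of the 8 on AL (Hmgcs1) and 2 under CR (Idi1 and Lss) were counted, beside 3.96% and 23.2% of all genes, and DESeq2 and limma voom called none on either diet. On AL the median log2 fold change of the 8 was 0.01, against -0.01 for all genes. Hmgcs1 was lower in every BMAd-Pnpla2-/- AL sample than in every control, with a log2 fold change of -0.27 (-0.53 to -0.0037, adjusted p = 0.9996). Under CR the median of the 8 was 0.01, against -0.01 for all genes. Idi1 was higher in every BMAd-Pnpla2-/- sample than in every control sample, with a log2 fold change of 0.53 (0.03 to 1.04, adjusted p = 0.194). For neither Idi1 here nor Hmgcs1 on AL was the share of all genes without overlap between genotypes counted. Lss overlapped through CR replicate 4 of the controls, with -0.43 (-0.83 to -0.03, adjusted p = 0.192). The other log2 fold changes under CR were 0.05 for Hmgcs1, -0.15 for Fdft1, 0.35 for Sqle (-0.02 to 0.72), 0.07 for Cyp51, -0.03 for Srebf2 and -0.21 for Insig1.

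Whether CR acted differently by genotype was asked of the difference between the responses. None of the 8 genes passed, and neither did any other gene (0%). No gene of the 8 had an unadjusted p under 0.05, beside 10.4% of all genes, and DESeq2 and limma voom called none of them. The difference of the log2 fold changes (BMAd-Pnpla2-/- minus BMAd-Pnpla2+/+) ran from -0.34 for Lss (-0.91 to 0.22) to 0.55 for Idi1 (-0.16 to 1.26). That of Hmgcs1 was 0.31 (-0.06 to 0.68) and that of Fdft1 was -0.22 (-0.53 to 0.09). Thus the calls of Lss and Fdft1 in controls and their absence in BMAd-Pnpla2-/- mice are not a measured difference between the genotypes. The intervals of the difference for Lss and Fdft1 hold equal responses. That of Lss also reaches a far smaller response in BMAd-Pnpla2-/- mice, where the interval of the response itself was 0.03 to 0.89.

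The choice of count column changed the calls of 3 of the 8 genes in comparisons that rest on the BMAd-Pnpla2-/- CR libraries. The deposited matrix holds reverse-strand counts for the 11 strand-specific libraries and unstranded counts for these 3. Hmgcs1 shares 557 exon bases with Gm48342, an antisense gene with 12 counts in all, and reads there enter the strand counts but not the unstranded ones. In the 11 libraries its unstranded count was 65.5% to 77.8% of the reverse-strand count. With the matrix, Hmgcs1 was lower in BMAd-Pnpla2-/- than in BMAd-Pnpla2+/+ under CR by a log2 fold change of -0.42 (adjusted p = 0.0286), while unstranded counts gave 0.05 and the sum of both strands gave -0.04. Its response to CR in BMAd-Pnpla2-/- mice was -0.19 with the matrix and 0.33 with unstranded counts.

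Fdft1 behaved likewise with reverse-strand counts in all 14 libraries. In the 11 strand-specific libraries, 33.8% to 45.03% of the strand-assigned reads of Fdft1 were on the first strand, and 50.4% to 51.04% in the 3 BMAd-Pnpla2-/- CR libraries. The log2 fold change of Fdft1 for CR in BMAd-Pnpla2-/- mice was then 0.74 (adjusted p = 0.000135) in place of 0.11, and between genotypes under CR it was 0.48 (adjusted p = 0.00329) in place of -0.15. For Srebf2 the same column gave -0.41 (adjusted p = 0.0235) in place of -0.28 for CR in these mice, and no gene on the other strand shares its exons. For control mice, Lss and Fdft1 were called with each of these columns, and also when the 3 BMAd-Pnpla2-/- CR libraries were left out (log2 fold changes 0.80 and 0.32, adjusted p = 0.0105 and 0.0486).

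**Figure D3:**
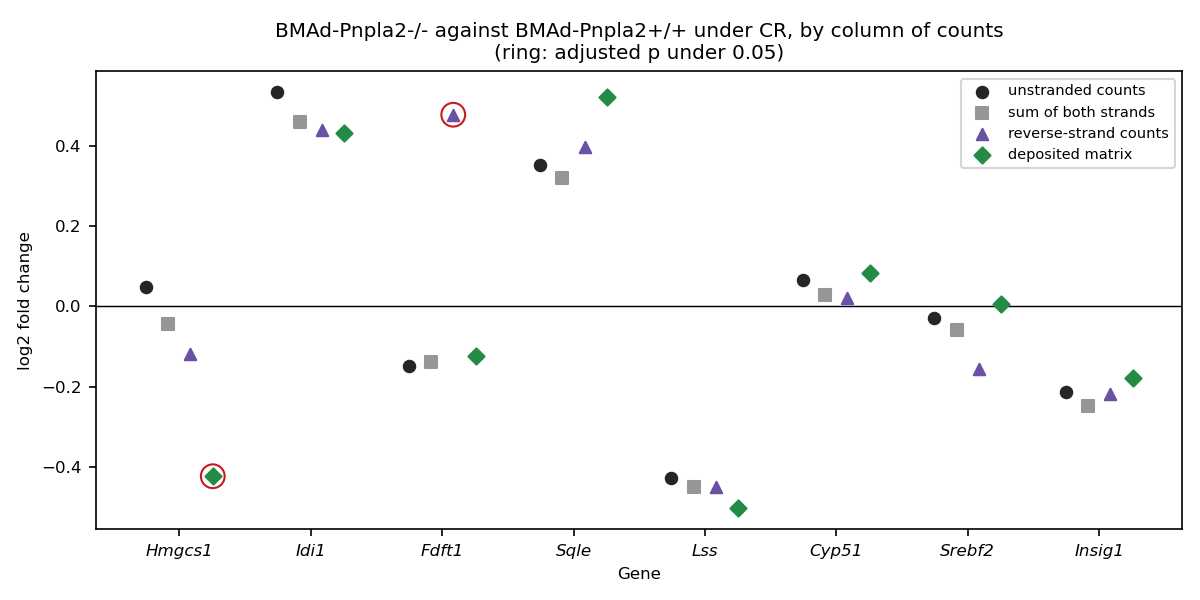
Genotype difference under CR as a log2 fold change, knockout over control (vertical axis), for each of the 8 genes, with 1 symbol for each column of counts and a ring where the adjusted p is under 0.05. The rings fall on Hmgcs1 with the deposited matrix (-0.42) and Fdft1 with reverse-strand counts (0.48), and neither has one with unstranded counts.

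The 8 genes were set among 53 genes of cholesterol synthesis, sensing, uptake, efflux and storage, of which 52 could be tested. In BMAd-Pnpla2+/+ mice 8 rose and 3 fell with CR, shares near or below the 15.1% of all genes called higher and 10.9% called lower. The median log2 fold change of the list was 0.10, and that of all genes was 0.00. The count of 11 became 5 without AL replicate 3, 4 without CR replicate 2, 6 without CR replicate 3, 20 without CR replicate 4, 6 with no filter on low counts, and 7 when only these groups were fitted. The shares of all genes given here belong to the main fit and not to these others. In synthesis, 2 of 20 rose (Lss and Fdft1) and 2 fell, again beside 15.1% and 10.9% of all genes. Those that fell were Fdps, farnesyl diphosphate synthase (log2 fold change -0.99, adjusted p = 0.0188), and Msmo1, a sterol demethylating oxidase (-0.33, 0.0202). Fdps acts just before Fdft1 in the pathway, and Msmo1 after Lss and Cyp51.

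In sensing and uptake, 4 of 21 rose and 1 fell in BMAd-Pnpla2+/+ mice, and in efflux and storage 2 of 11 tested genes rose and none fell, beside the same 15.1% and 10.9% of all genes. Stard4, a carrier of cholesterol in the cytosol, fell (log2 fold change -0.59, adjusted p = 0.0114). Insig2, the relative of Insig1, rose (0.67, 0.0151), as did Srebf1, which encodes the SREBP of fatty acid synthesis (0.55, 0.0325), Npc1, which moves cholesterol out of lysosomes (0.43, 0.0252), and Vldlr, the VLDL receptor (1.15, 0.0291). From the list of efflux and storage, Abca1 (0.78, adjusted p = 0.0162) and Mylip (0.33, 0.0488) were called, and Abcg1 was at 0.37 (adjusted p = 0.0531). Mylip encodes a ubiquitin ligase, not a transporter or an enzyme of storage. Mylip lay at the threshold and was called in 3 of the 14 fits that left out 1 sample and in 7 of 13 other settings. Of the 14 fits, Srebf1 was called in 8, Vldlr in 9, Npc1 in 11 and Abca1 in 12, the last lost without AL replicate 3 or CR replicate 3.

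In BMAd-Pnpla2-/- mice 3 of the 52 genes rose and 2 fell with CR, no more than the 6.04% of all genes called higher and 5.57% called lower. Acat2, the thiolase that makes acetoacetyl-CoA (log2 fold change 0.53, adjusted p = 0.0342), Hsd17b7, a sterol ketoreductase (0.46, 0.0416), and Insig2 (0.66, 0.0468) rose. Mvd, mevalonate diphosphate decarboxylase (-0.59, 0.0263), and Scap (-0.31, 0.0472) fell. Mvd depends on the count column: its log2 fold change was 1.04 (adjusted p = 0.00157) with the deposited matrix and 0.91 (0.00268) with reverse-strand counts. These 5 calls rest on few samples: the count was 0 without AL replicate 1 or 3 or CR replicate 2 or 3, 2 without AL replicate 2, and 3 without CR replicate 1. It was also 3 without AL replicate 3, AL replicate 4 or CR replicate 1 of the controls. Abca1 was at 0.68 (0.18 to 1.19, adjusted p = 0.0730) and Abcg1 at 0.09 (-0.24 to 0.42). The Insig2 call was kept in 4 of the 14 fits that left out 1 sample and in 6 of 11 other settings, and was lost with limma voom (adjusted p = 0.0514) and with the replicate block (0.0633). Between genotypes, 0 of the 52 were called on AL, 0 under CR and 0 for the difference of the responses, where 1, 15 and 7 had an unadjusted p under 0.05, beside 3.96%, 23.2% and 10.4% of all genes. Under CR DESeq2 called 8 where limma voom called 0, and the count was 9 without CR replicate 4 of the controls, and 1 without CR replicate 3 or AL replicate 2 of the controls. The shares of all genes called in these other fits are not given, so the counts have no background beside them.

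**Figure D4:**
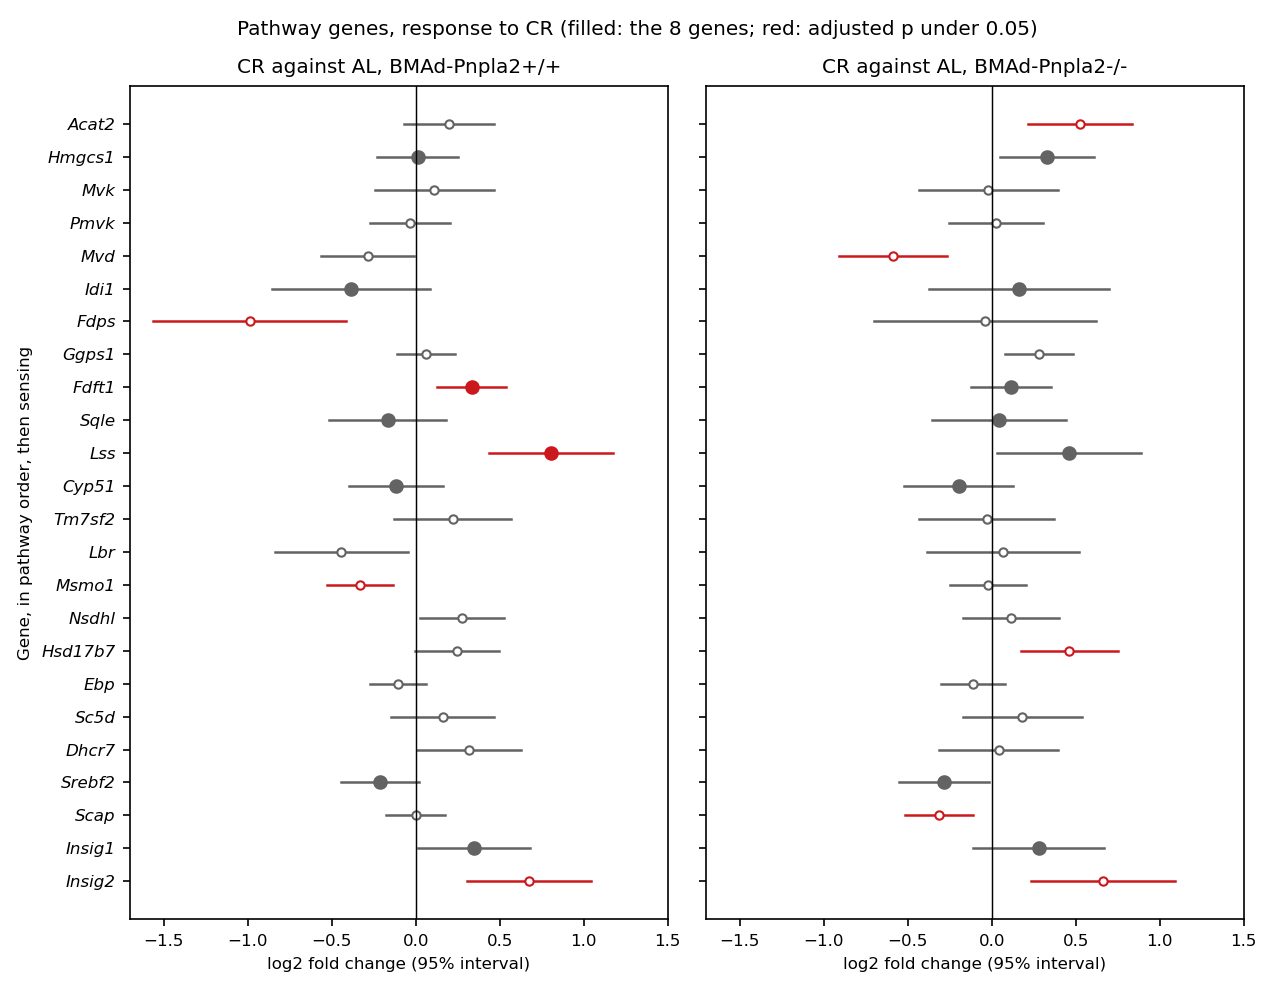
Log2 fold change for CR against AL with its 95% interval (horizontal axis) in BMAd-Pnpla2+/+ (left) and BMAd-Pnpla2-/- (right) mice, for 20 genes of synthesis in pathway order followed by 4 of sensing. Filled points are the 8 genes and red marks an adjusted p under 0.05. Lss and Fdft1 are red on the left only, and Insig2 is red on both sides.

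Samples of a group also differed among themselves, and the 8 genes did not vary as 1 block. Over the 14 samples, with each group's mean taken out of log2 CPM, the 28 pairs of the 8 genes had a mean Pearson r of 0.26, beside 0.00 for all pairs of the 17671 genes. The range ran from -0.66 for Hmgcs1 with Fdft1 to 0.89 for Lss with Insig1, with 9 pairs over 0.5 and 8 below 0. The shares of all gene pairs over 0.5 and below 0 were not counted. Sqle, Cyp51 and Srebf2 went together, with r of 0.84 for Sqle with Srebf2, 0.73 for Sqle with Cyp51 and 0.70 for Cyp51 with Srebf2, and Fdft1 joined Srebf2 at 0.73. All these pairs share libraries and their cell content.

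Cell type genes moved with several of the 8 inside the groups. Lss and Insig1 had r of 0.732 and 0.735 with the summed adipocyte genes, and Hmgcs1 had 0.67. These links were not to adipocyte genes alone. Lss had r of -0.69 with genes of proliferating cells, -0.67 with neutrophil, -0.58 with erythroid and 0.55 with macrophage genes. Insig1 had -0.57 with genes of proliferating cells. Hmgcs1 also had 0.75 with macrophage genes and -0.76 with erythroid genes. Idi1 went the other way, with r of 0.72 with genes of proliferating cells, 0.69 with erythroid genes and -0.51 with adipocyte genes. Cyp51 and Srebf2 had r of 0.08 and 0.03 with the adipocyte genes. With CR in BMAd-Pnpla2+/+ mice, where 15.1% of all genes were called higher and 10.9% lower, 8 of 8 adipocyte, 5 of 8 osteoblast and 3 of 8 macrophage genes were called higher, and 7 of 8 pro-B and pre-B, 6 of 8 neutrophil and 4 of 8 proliferation genes lower. In BMAd-Pnpla2-/- mice, where 6.04% were called higher and 5.57% lower, 8 adipocyte, 1 osteoblast and 1 macrophage gene were called higher, and 7 pro-B and pre-B, 0 neutrophil and 0 proliferation genes lower. No erythroid gene was called in either. For the difference of the responses no gene of these lists was called, as no gene was (0%). Their part in the values of the 8 genes was not tested.

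**Figure D5:**
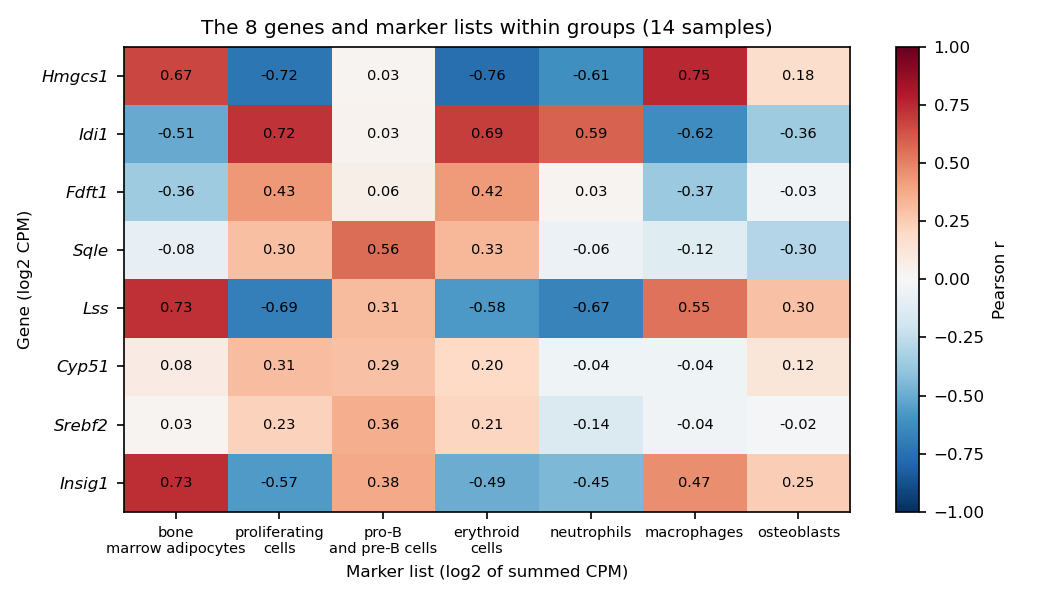
Pearson r over 14 samples between log2 CPM of each of the 8 genes (rows) and the log2 of the summed CPM of each list of 8 cell type genes (columns), both with the mean of each group taken out. Lss, Insig1 and Hmgcs1 are positive with adipocytes (0.667 to 0.735), Idi1 is negative (-0.51), and Cyp51 and Srebf2 are near 0.

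Outside the pathway list, the 5 genes whose pattern was most like the mean of the 8, among 12999 genes whose counts averaged 50 or more, were Hdac1 (r = 0.90), Tmem97 (0.89), Gm42031 (0.88), Mtg2 (0.87) and Sars2 (0.87), over 14 samples with group means taken out. Hdac1 encodes a histone deacetylase and Tmem97 a membrane protein known as the sigma-2 receptor. Among the 8, r with their mean was highest for Sqle and Srebf2 (0.85 each) and Cyp51 (0.84), and Hmgcs1 was at 0.02. Each of the 8 is part of that mean, which raises its r.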

How the data were processed

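The authors aligned read pairs, from libraries described as strand-specific, to mm10 with STAR after FastQC 0.11.9 and deposited raw counts per gene for each sample, without strand and on each strand, and 1 matrix of raw counts. The study's own test was DESeq2. The unstranded counts were used here as deposited. A read that overlaps more than 1 gene is in no unstranded count, whereas the strand counts consider the genes of 1 strand only.

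Counts were scaled by TMM and tested with the quasi-likelihood test of edgeR 4.0.16 (R 4.3.3) in 1 robust fit of the 4 groups, after filterByExpr had left 17671 genes. Tests were two-sided, with Benjamini-Hochberg adjustment over all genes within a comparison. Called means an adjusted p under 0.05. CPM used TMM library sizes. The standard error came from the fold change and its F statistic. Gene positions and exon lengths came from GENCODE M21 on GRCm38.

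All 8 genes, Pnpla2, Abca1, Abcg1, other pathway genes where called, and the 5 genes most like the 8 were named. A further 3 genes of the pathway list are not reported here and were left out of its counts. The genes, lists and tests were chosen with earlier results of these data known. Alternatives were other scalings, filters, tools (DESeq2 1.42.0, limma 3.58.1) and count columns, the replicate number as a block, and leaving out each sample. The strand sum of all 14 samples, and reverse-strand counts without BMAd-Pnpla2-/- CR, were chosen after the data were seen.

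On simulated data for the control CR comparison with 17354 genes, edgeR recovered 76 of 100 genes changed by 1 log2 unit and 99 of 100 changed by 2, with 8 false calls. Only 200 genes were changed, and the spread followed the trend over genes and not each gene's own. The largest change of the 8 genes there was 0.81, so recovery of changes of their size was not measured.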

Additional observations from a re-analysis of the deposited data

Results flagged for a closer look

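Sqle in BMAd-Pnpla2+/+ CR replicate 4 was at 24.9 CPM, far from the 18.2, 18.5 and 17.9 CPM of the other samples of its group. The gap was 0.910 of the group's range, above the 95% critical value of Dixon for 4 samples, in 1 of 16 gene and group pairs tested, and chance flags about 1 in 20.

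For Idi1 the log2 fold changes with CR had opposite signs in the genotypes, -0.39 and 0.16, but neither passed (adjusted p = 0.200 and 0.712, edgeR), and the BMAd-Pnpla2-/- value was -0.0121 without AL replicate 2. Every BMAd-Pnpla2+/+ CR sample was below the mean of its AL group and every BMAd-Pnpla2-/- CR sample was above the mean of its own. The test of the difference gave a log2 value of 0.55 (95% interval -0.16 to 1.26, adjusted p = 0.569, edgeR), so it was not called.

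The strand columns, used in alternatives but not in the main comparisons, hold a signal in BMAd-Pnpla2-/- CR. There 50.6% ± 0.877 (SD, n = 3) of the strand-assigned reads of the 8 genes were on the first strand, against 4.99% ± 0.340 (n = 4) in BMAd-Pnpla2+/+ AL, 6.38% ± 0.779 (n = 4) in BMAd-Pnpla2+/+ CR and 5.48% ± 0.693 (n = 3) in BMAd-Pnpla2-/- AL.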

How the results depend on the processing

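With each alternative the log2 fold changes of the 8 genes mostly kept their direction and side of the threshold. Lss in controls was called in every alternative except the added criterion of a change over 1 log2 unit, which no gene of the 8 met, and Fdft1 in the same alternatives apart from that with no filter on low counts and from 4 of the 14 fits with 1 sample left out. The cause of the changes below was not tested. The share of all genes called in each alternative is not given, so the counts below have no background beside them. Under the added criterion of a change over 1 log2 unit, the count of the 8 genes called was 0 for CR in BMAd-Pnpla2+/+. With no filter on low counts, the count of the 8 genes called was 1 for CR in BMAd-Pnpla2+/+, the pathway count was 6 for CR in BMAd-Pnpla2+/+, Hmgcs1 was -0.00526 for CR in BMAd-Pnpla2+/+, the pathway count was 2 for CR in BMAd-Pnpla2-/-, Sqle was -0.0292 for CR in BMAd-Pnpla2-/- and Idi1 was 0.00609 for genotype on AL. With only the 2 groups compared, the pathway count was 7 for CR in BMAd-Pnpla2+/+. With limma voom, the pathway count was 3 for CR in BMAd-Pnpla2-/-. With the deposited matrix, the pathway count was 9 for CR in BMAd-Pnpla2-/-, Hmgcs1 was -0.19 for CR in BMAd-Pnpla2-/-, the count of the 8 genes called was 1 for genotype under CR, the pathway count was 8 for genotype under CR, Hmgcs1 was -0.42 for genotype under CR, Srebf2 was 0.00623 for genotype under CR, the pathway count was 2 for the difference of the responses, Hmgcs1 was -0.22 for the difference of the responses and Mvd was 1.04 for CR in BMAd-Pnpla2-/-. With reverse-strand counts, the count of the 8 genes called was 2 for CR in BMAd-Pnpla2-/-, the pathway count was 8 for CR in BMAd-Pnpla2-/-, the count of the 8 genes called was 1 for genotype under CR, the pathway count was 8 for genotype under CR, Hmgcs1 was -0.12 for genotype under CR, Fdft1 was 0.48 for genotype under CR, the pathway count was 1 for the difference of the responses, Fdft1 was 0.41 for the difference of the responses and Mvd was 0.91 for CR in BMAd-Pnpla2-/-. With the replicate block, the pathway count was 2 for CR in BMAd-Pnpla2-/-. With the sum of both strands, the pathway count was 3 for CR in BMAd-Pnpla2-/- and Hmgcs1 was -0.0436 for genotype under CR. With DESeq2, the pathway count was 8 for genotype under CR. Leaving out 1 sample at a time, values for CR in BMAd-Pnpla2+/+ ran from 1 to 2 for the count of the 8 genes called, 4 to 20 for the pathway count and -0.0897 to 0.0793 for Hmgcs1. Leaving out 1 sample at a time, values for CR in BMAd-Pnpla2-/- ran from 0 to 7 for the pathway count, -0.0896 to 0.15 for Abcg1, 0.0128 to 0.22 for the median of the 8, -0.0121 to 0.37 for Idi1, -0.11 to 0.20 for Sqle and -0.00489 to 0.19 for Fdft1. Leaving out 1 sample at a time, values for genotype on AL ran from -0.26 to 0.13 for Idi1, -0.20 to 0.0411 for Lss, -0.27 to 0.00413 for Insig1, -0.26 to 0.12 for Abca1, -0.12 to 0.12 for the median of the 8, -0.0382 to 0.16 for Fdft1, -0.0462 to 0.26 for Sqle, -0.00350 to 0.27 for Cyp51 and -0.0869 to 0.14 for Srebf2. Leaving out 1 sample at a time, values for genotype under CR ran from 0 to 9 for the pathway count, -0.0896 to 0.0376 for Srebf2 and -0.0162 to 0.15 for Hmgcs1. Leaving out 1 sample at a time, values for the difference of the responses ran from -0.22 to 0.0555 for Insig1, -0.25 to 0.0258 for Cyp51, -0.22 to 0.0149 for Srebf2, -0.34 to 0.0353 for Abca1 and -0.20 to 0.0203 for the median of the 8. Samples with the same number did not deviate together (19 pairs, r -0.38 to 0.33, 7 over 0.1), so the numbers name samples only. With the replicate block 2 of the 8 genes were called for CR in BMAd-Pnpla2+/+, Fdft1 and Lss, and 0 in each other comparison. The fits without the BMAd-Pnpla2-/- CR group give no value for comparisons that need it. Few reads limit Idi1 most, with 62 to 143 counts per sample.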
